A study of Mus musculus with 18 samples.

Results

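The RNA of non-epithelial cells (NECs) of the cochlea was compared with that of NECs of the vestibular system. The members of the comparison are 6 arrays of the 18 in the series, 3 of cochlear NECs and 3 of vestibular NECs, chosen by their labels alone. All groups came from Atoh1/nGFP mice on the C57BL/6 background at postnatal day 1 (P1). In these mice Atoh1 drives nuclear GFP, a green fluorescent protein, which lights up hair cells (HCs). The dissected auditory and vestibular tissues were dissociated and sorted by GFP and by CD326, the epithelial surface protein encoded by Epcam. HCs carried both markers and epithelial non-hair cells (ENHCs) carried CD326 alone. NECs carried neither, so that the sorted population is defined by what its cells lack and can hold mesenchyme, vessels, blood cells, glia and neurons of the dissected tissue. Each replicate pooled the inner ears of several mice, and the RNA of a pool was amplified and hybridised to 1 Illumina BeadChip array.

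The non-epithelial tissue of the inner ear builds the connective tissue frame on which the sensory epithelia rest. Its mesenchyme forms the spiral ligament, the spiral limbus and the cells under the basilar membrane in the cochlea, and the stroma under the maculae and cristae in the vestibular organs. Fibrocytes of this tissue pass potassium through connexin channels, melanocyte-derived cells take part in the stria vascularis, and afferent neurons of the spiral and vestibular ganglia send their fibres through it. Nerve cell bodies lie within the bony core of the cochlea, whereas those of the vestibular ganglion lie outside the vestibular organs.

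Across the 6 NEC arrays, 17183 to 18431 of 45281 probes were detected (detection p under 0.01). Over the 24352 probes detected on at least 2 of the 18 arrays, arrays of one organ correlated at 0.972 to 0.984 in cochlear NECs. The range was 0.962 to 0.979 in vestibular NECs and 0.938 to 0.959 between arrays of different organs. Signals are given on the normalised linear scale, on which probes that pass for detected lie above a limit of 38.1 to 43.3 on these arrays and the lowest possible values lie near 18.8. A gene was called when its limma adjusted p was under 0.05 over the 12002 genes tested, and differences are log2 values, cochlear minus vestibular, ± the standard error of the fit (n = 3 arrays a group). Where a gene was detected on no array of one organ, its fold is a lower bound against the detection limit and is written "at least". Where it was detected on some arrays of an organ only, the fold is taken at the measured values, which holds for Clic6 (1 cochlear array), Col14a1, Col6a2 and Six2 (2 cochlear arrays), Dct and Esrrg (1 vestibular array) and Ebf2, Epha5, Mme and Syp (2 vestibular arrays). In such bulk samples fewer cells of a type and less RNA per cell cannot be told apart.

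The labelled cell type was checked against its markers. Epcam was undetected on all 6 NEC arrays, as was Atoh1, the hair cell transcription factor that drives the reporter. Of the 27 hair cell genes measured, 19 were undetected on all 6 arrays, and of the 40 epithelial genes 27 were. Cdh1, which encodes E-cadherin of epithelial junctions, went against this, at 4643, 2860.0 and 2658 in cochlear and 2023, 2331 and 2493 in vestibular NECs, well above the limit on all 6 arrays, and Oc90, a protein of the otoconia that vestibular epithelium makes, was detected on 2 vestibular arrays. The defining mesenchyme genes Pou3f4, Tbx18, Prrx1, Twist1, Twist2 and Snai2 were detected on all 6 arrays. So were Pecam1, Cdh5, Tek, Kdr and Cldn5 of the endothelium, Pdgfrb, Rgs5, Cspg4 and Acta2 of pericytes and Hba-a1 of red cells.

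Of the 12002 genes, 343 were higher in cochlear NECs (2.86%) and 399 were higher in vestibular NECs (3.32%). At least 2-fold differences made up 245 of the former and 241 of the latter. The 3 cochlear arrays did not overlap the 3 vestibular arrays for 727 of the 742 called genes, while they did not overlap for 25.9% of all genes. Many calls in both directions were of the on or off kind. Detection on all 3 arrays of one organ and on none of the other was seen for 103 genes higher in cochlear NECs and 73 higher in vestibular NECs, against 154 and 240 called genes that all 6 arrays detected. With the replicate number as a block, the counts were 573 and 672, and 702 of the 742 genes were called in the same direction in both fits. Among genes higher in cochlear NECs, cochlear replicate 3 was the highest of the 6 arrays for 222 of 343, and without it 220 genes were higher in cochlear NECs. Among those higher in vestibular NECs, vestibular replicate 1 was the highest for 185 of 399, and without cochlear replicate 2 the count of such genes was 259. Called genes lay on every autosome and on X, from 3.43% of the genes tested on chromosome 19 to 10.1% on chromosome 6.

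**Figure D1:**
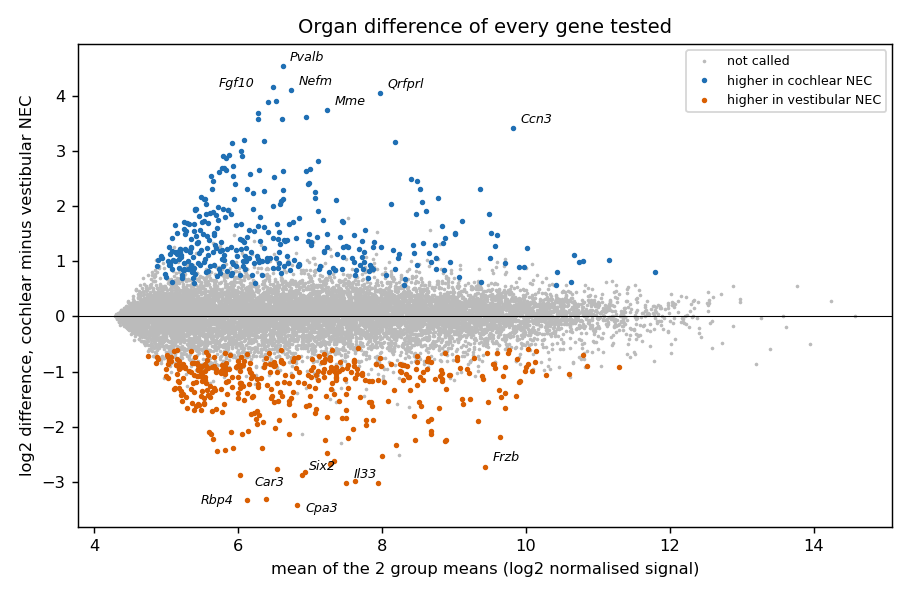
Each of the 12002 genes tested, with the mean of the cochlear and vestibular NEC group means on the x axis (log2 normalised signal) and the log2 difference, cochlear minus vestibular, on the y axis. Blue points are the 343 genes called higher in cochlear NECs, orange points the 399 called higher in vestibular NECs and grey points the rest, and Pvalb lies at 4.55 and Il33 at -3.03 ± 0.27 on the y axis.

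The cochlear side was led by genes of neurons. Pvalb, a calcium-binding protein of spiral ganglion neurons that hair cells also make, had signals of 459, 316 and 738 in cochlear NEC replicates 1 to 3 and of 21.2, 19.4 and 20.4 in the vestibular replicates. Every cochlear value stood far above the detection limit and no vestibular value reached it, a difference of at least 11.9-fold (adjusted p = 6.72e-09). Nefm, a neurofilament subunit of axons, read 539.6, 248 and 645 against 21.2, 32.3 and 24.9, at least 11.1-fold (adjusted p = 1.73e-07), and its 3 probes were all called. Stmn2, a microtubule regulator of growing neurites, read 305, 231 and 509 against 21.9, 24.1 and 20.9, at least 8.28-fold (adjusted p = 1.23e-08). In all 3 genes cochlear replicate 3 was the highest and cochlear replicate 2 the lowest of its group.

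Of the 44 neuron genes measured, 25 were higher in cochlear NECs, 1 was higher in vestibular NECs and 18 did not pass, and the median log2 difference was 1.02 (0.75 with undetected genes at their bounds) against 0.03 over all genes. The 25 of 44 stand beside 2.86% of all genes, and calls of members in the vestibular direction stand throughout beside 3.32%. Of the 25, 17 were detected on no vestibular array. They took in structural genes of the axon (Nefl, at least 4.5-fold, and Ina, at least 4.59-fold), the migrating-neuron gene Dcx (at least 6.74-fold), the synaptic genes Snap25 (at least 3.3-fold) and Syp (5.39-fold), and the vesicular glutamate transporter Slc17a6 (at least 2.08-fold). Transcription factors of sensory neurons were among them too, and Syp, Slc17a6, Ina, Isl1, Pou4f1 and Esrrg are named here after their values were seen. Isl1, a LIM homeodomain factor, read 225, 125.5 and 305 in cochlear and 21.6, 24.2 and 21.4 in vestibular NECs (adjusted p = 7.1e-07). Pou4f1, a POU factor of sensory ganglia, read 43.9, 46.7 and 117.5 against 19.7, 19.4 and 19.6, at least 1.56-fold (adjusted p = 0.000813). The nuclear receptor gene Esrrg was 9.09-fold higher (log2 3.18 ± 0.30, adjusted p = 1.21e-06). Not every neuron gene followed. Elavl3, which encodes a neuronal RNA-binding protein, read 279.8, 272 and 279.5 against 253, 294 and 297 and was not called, although its other probe was called higher in cochlear NECs, and the peripherin gene Prph was not measured. The neuron gene that was higher in vestibular NECs was Ret, a receptor for GDNF family ligands, detected on 1 vestibular array alone (adjusted p = 0.0115), with no call without cochlear replicate 1 or vestibular replicate 1 (adjusted p 0.057 to 0.0748).

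Summed over the 44 genes, the neuron signal was 6237, 5259 and 9757 in cochlear NECs and 2383, 2258 and 2391 in vestibular NECs. The groups did not overlap, and the cochlear group spread much more widely than the vestibular group. Cochlear replicate 3 was the highest array for 24 of the 25 called genes, and without it 21 of the 44 were higher in cochlear NECs (21 to 26 over the 6 arrays left out in turn). Of the 25 measured Schwann cell and glia genes, 1 was higher in cochlear and 3 in vestibular NECs, and Sox10, the transcription factor of the glial and melanocyte lineages, read 99.3, 206 and 117 against 91.9, 219 and 113. Within each pair of equal replicate number the Sox10 values lay close together, and the glial sums of the organs overlapped, at 8387 to 10604 in cochlear and 8951 to 10509 in vestibular NECs. The glial genes higher in vestibular NECs were S100b, a calcium-binding protein (3.47-fold), the myelin gene Mag (at least 1.98-fold) and Pmp2, a myelin lipid carrier (at least 1.36-fold), and the count was 5 without vestibular replicate 2 and 6 with the block. The one higher in cochlear NECs was the neurotrophin receptor Ngfr (3.79-fold, adjusted p = 0.00232).

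**Figure D2:**
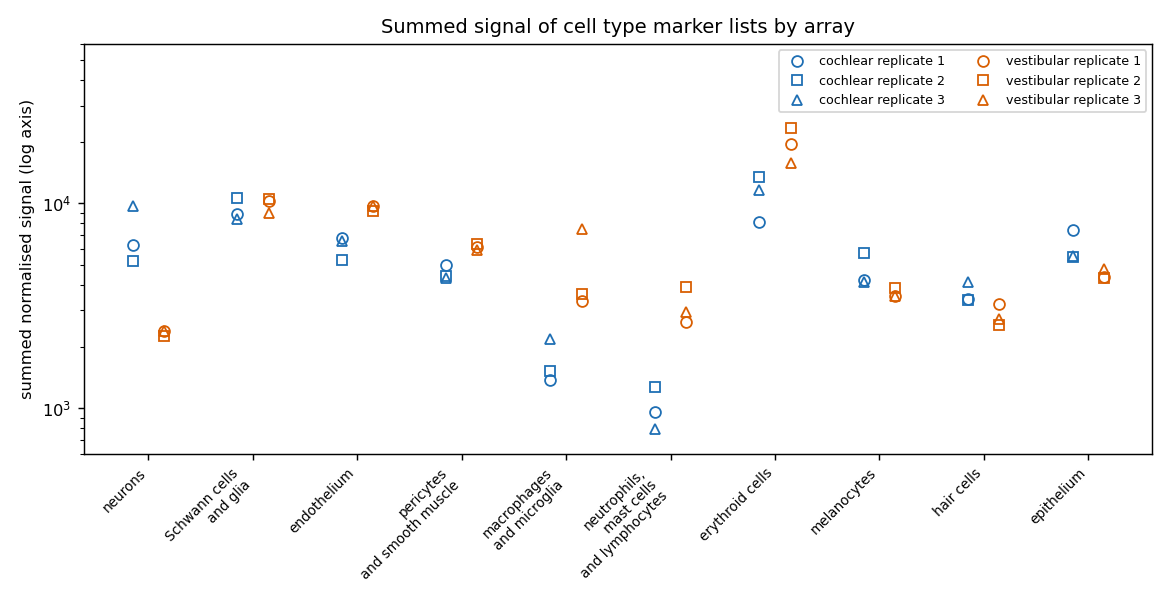
Summed normalised signal (log axis) of the measured genes of 10 cell type marker lists on each of the 6 NEC arrays, blue for cochlear and orange for vestibular replicates, with the shape giving the replicate number. Neuron sums were 5259 to 9757 in cochlear and 2258 to 2391 in vestibular NECs, glial sums overlapped, and endothelial, pericyte, macrophage, white cell and erythroid sums were higher on every vestibular array than on any cochlear array.

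The promoters of a pair of these neuron genes, chosen among the called members for a shared motif, are given here from RefSeq (build GRCm38.p6), from 250 bases before to 50 bases after the first-listed start of each gene. Capitals mark the E-box letters CAGCTG, which read the same on both strands and are of the class that proneural helix-loop-helix factors bind. The Pou4f1 window is chr14:104467950-104468249, minus strand and the Ina window chr19:47014431-47014730, plus strand.
Pou4f1: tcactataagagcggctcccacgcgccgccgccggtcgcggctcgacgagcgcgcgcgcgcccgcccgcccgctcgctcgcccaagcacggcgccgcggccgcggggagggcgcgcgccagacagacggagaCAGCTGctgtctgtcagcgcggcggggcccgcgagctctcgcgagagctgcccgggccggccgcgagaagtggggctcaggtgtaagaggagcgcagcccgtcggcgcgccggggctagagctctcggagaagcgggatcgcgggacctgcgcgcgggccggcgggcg
Ina: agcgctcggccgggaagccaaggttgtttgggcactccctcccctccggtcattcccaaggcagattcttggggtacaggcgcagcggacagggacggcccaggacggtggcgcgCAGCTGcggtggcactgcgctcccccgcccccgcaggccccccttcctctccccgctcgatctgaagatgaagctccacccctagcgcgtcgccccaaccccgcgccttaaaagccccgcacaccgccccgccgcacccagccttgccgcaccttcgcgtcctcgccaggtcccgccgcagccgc
The E-box starts 118 bases before the gene start in Pou4f1 and 135 bases before it in Ina. The same letters were found in 5 of the 20 called neuron genes that have a promoter in the table and in 14.8% of the 9651 tested genes that have one.

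Beyond the neuron list, the genes with the largest differences on the cochlear side were of several kinds. Qrfprl, a receptor-like gene, read 1048.5, 1009.9 and 1001 in cochlear NECs and 62.6, 54.9 and 68.3 in vestibular NECs, 16.5-fold higher (log2 4.05 ± 0.43, adjusted p = 5.26e-06). The 3 cochlear values lay within a narrow band, unlike those of the neuron genes. Ccn3, a secreted matricellular protein, read 2700.5, 2916 and 3293 against 250.5, 271 and 311.5 (10.7-fold, log2 3.42 ± 0.38, adjusted p = 1.15e-05), again with no overlap and little spread. Mme, the membrane metalloendopeptidase neprilysin, was chosen after its values were seen and read 520.0, 532 and 609 against 41.4, 31.8 and 53.6 (13.4-fold, adjusted p = 3.04e-07), with all 4 of its probes called. Fgf10, a ligand of the FGF receptor 2 that neurons and epithelium of the ear use in development, read 367, 261 and 567 against 20.8, 22.2 and 20.3, at least 9.5-fold (adjusted p = 1.52e-08). Its 3 cochlear values had the same order as those of Pvalb, Nefm and Stmn2. The same order was found for Sult4a1, a neural sulfotransferase (at least 8.92-fold), for Tmem178b, a membrane protein gene (at least 8.46-fold), and for the reticulon Rtn1, at 755, 649 and 1332 against 121.5, 71.1 and 106 (8.93-fold, adjusted p = 1.22e-07). The presynaptic adhesion gene Nrxn2 had another order, at 672, 947 and 827 against 101, 190.3 and 153 (5.63-fold, adjusted p = 3.22e-05). The remaining genes of this rank were Nacad (6.36-fold), the zona pellucida-like domain gene Zpld1 (5.49-fold), the calcium buffer Calb2 (5.3-fold), the microtubule-associated gene Map1b (4.98-fold), Tnc, Efemp1, Aldh1a3 (4.42-fold) and Tmem74b (4.34-fold). Map1b lost its call without cochlear replicate 2 or 3 or vestibular replicate 1 or 2 (adjusted p 0.0625 to 0.227). Not all probes of these genes were called. It was 1 of 2 for Nrxn2, Nacad, Calb2, Sult4a1 and Aldh1a3, 3 of 4 for Rtn1 and 4 of 5 for Map1b.

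**Figure D3:**
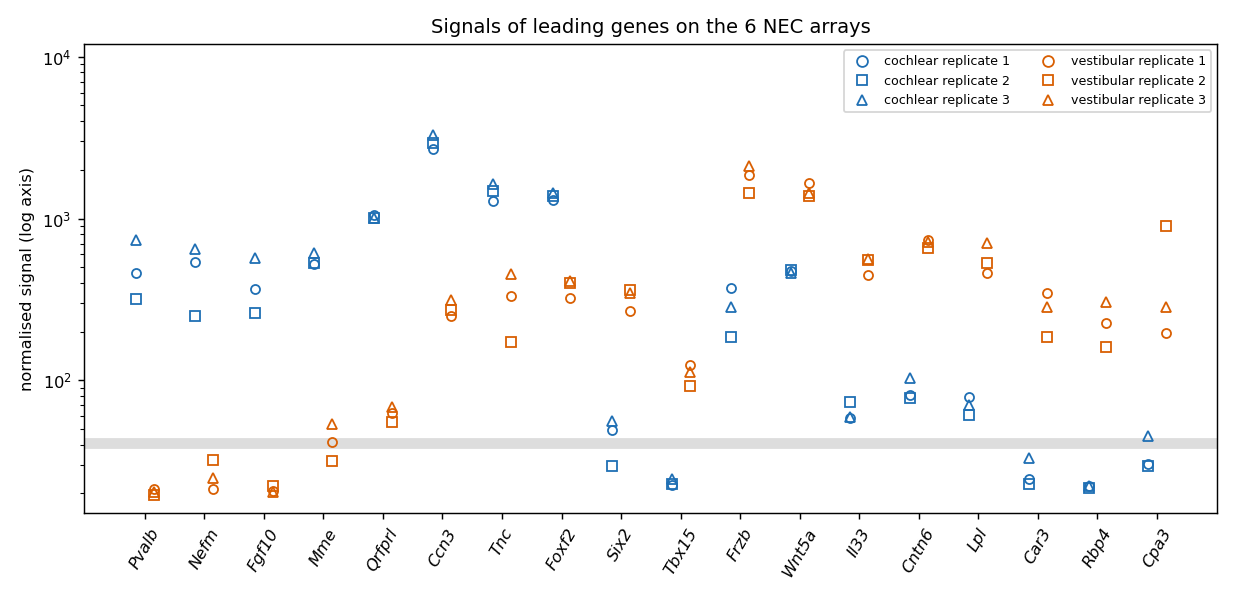
Normalised signals (log axis) of 18 genes on the 6 NEC arrays, blue for cochlear and orange for vestibular replicates, with the shape giving the replicate number and the grey band the detection limits of 38.1 to 43.3. In each gene the 3 cochlear points lie wholly above or below the 3 vestibular points, and cochlear replicate 3 is the top point for Pvalb, Nefm and Fgf10.

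The transcription factors of mesenchyme and of body position separated the organs in both directions. Of 41 mesenchyme transcription factors measured, 7 were higher in cochlear and 3 in vestibular NECs, with a median log2 difference of -0.13. Foxf2, a forkhead factor of neural crest mesenchyme, read 1296, 1375 and 1440.2 in cochlear and 324, 399.9 and 408 in vestibular NECs (3.65-fold, log2 1.87 ± 0.17, adjusted p = 8.97e-07). The groups were far apart and each was tight. Ebf2 (2.88-fold), Foxd1 (2.39-fold) and Snai1, a repressor of epithelial genes (at least 1.66-fold), were higher in cochlear NECs as well. For all 7 genes cochlear replicate 3 was the highest array, and without it 5 factors were higher in cochlear NECs. Tbx15, a T-box factor of limb and craniofacial mesenchyme, went the other way, at 22.5, 22.7 and 24.5 against 124, 91.8 and 112, at least 2.71-fold higher in vestibular NECs (adjusted p = 1.73e-07). Tbx18, a T-box factor of otic mesenchyme, was 1.62-fold higher in vestibular NECs, but was not called without cochlear replicate 1, 2 or 3 or vestibular replicate 1, 2 or 3 (adjusted p 0.0594 to 0.154), and the vestibular count was 1 without cochlear replicate 1 or vestibular replicate 2 and 5 with the block. Of the other defining genes Snai2 was called, but not without cochlear replicate 1 or 3. Its call was also lost with the 6 NEC arrays fitted alone (highest adjusted p of any alternative 0.0667). Pou3f4, the X-linked deafness gene of otic mesenchyme, was not called, at 154, 113 and 106 against 112, 222 and 199. Neither was Twist1, at 172.5, 146 and 141 against 202, 141 and 159.8.

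Of 37 positional genes, 5 were higher in cochlear and 4 in vestibular NECs. Six2, a homeobox factor of mesenchymal progenitors, read 49.5, 29.7 and 56.3 against 269.8, 359 and 344 (7.39-fold higher in vestibular NECs, log2 -2.89 ± 0.28, adjusted p = 1.62e-06). Zic1, a zinc finger factor of dorsal neural tissue and mesoderm, read 392, 259 and 368 against 1191, 1048 and 1519 (3.7-fold, adjusted p = 3.62e-05). Its neighbour on chromosome 9, Zic4, was at least 1.19-fold higher in vestibular NECs, on 2 of 3 arrays. All 4 vestibular calls of this list held whichever array was left out, while the cochlear count was 3 without cochlear replicate 3. On the cochlear side stood Tbx1, a T-box factor of the otic vesicle and of the mesenchyme around it, at 104, 80.7 and 97.7 against 25.7, 24.8 and 26.2 (at least 2.35-fold, adjusted p = 7.47e-06), and Eya4, a transcriptional coactivator behind a human deafness, at 94.2, 83.8 and 78.9 against 27.7, 37.3 and 26.1 (at least 2.14-fold, adjusted p = 4.75e-05). Nkx6-1, a homeodomain factor chosen after its values were seen, was detected on all cochlear and no vestibular arrays, at 218, 194 and 178 against 30.7, 27.7 and 35.6 (at least 4.92-fold, adjusted p = 9.67e-09).

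Calls among matrix genes went both ways. Among 34 genes of elastic fibres and of provisional matrix, which cells lay down while tissue is being shaped, 5 were higher in cochlear and 3 in vestibular NECs (8 and 3 with the block), with a median log2 difference of -0.08. Tnc, which encodes tenascin C, a major matrix protein beneath the basilar membrane, read 1290.4, 1473 and 1641 against 334, 171 and 453 (4.94-fold higher in cochlear NECs, log2 2.30 ± 0.29, adjusted p = 3.91e-05), with all 7 probes called. Fn1, fibronectin, read 806, 909 and 912 against 227.5, 284 and 456 (2.83-fold, adjusted p = 0.000669). Efemp1, a fibulin of elastic tissue, was 4.45-fold and Thbs3, a thrombospondin, at least 1.52-fold higher. The cochlear and vestibular groups did not overlap in any of these 4 genes. Mgp, the matrix Gla protein that holds back mineral, went the other way, at 263, 181 and 206 against 752.5, 518 and 639 (2.94-fold higher in vestibular NECs, adjusted p = 0.0030).

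Every call among collagens and basement membrane genes was in the vestibular direction. Of 20 fibrillar and associated collagens, 6 were higher in vestibular and 0 in cochlear NECs, and of 18 basement membrane genes the counts were 4 and 0. Median log2 differences were -0.14 and -0.34 (-0.15 with bounds). Col14a1, a collagen that sits on the surface of fibrils, read 33.3, 58.9 and 47.1 against 140.5, 162 and 270.4 (4.05-fold, adjusted p = 0.000129). Col6a1 (2.08-fold) and Col6a2 (2.71-fold), which encode chains of the microfibrillar collagen VI, were both higher. The fibrillar collagen Col3a1 was not called, at 2608, 3039 and 3337 against 3742, 3115 and 3283. Lama1, a laminin chain of early basement membranes, was seen in vestibular NECs only, at 21.3, 25.2 and 20.7 against 140.1, 93.6 and 135 (at least 3.03-fold, adjusted p = 5.03e-06). The leucine-rich proteoglycan Aspn was at least 1.93-fold higher in vestibular NECs. With median scaling of the arrays in place of quantile normalisation, 3 collagens and 1 basement membrane gene were higher in vestibular NECs. The basement membrane count was also 1 without cochlear replicate 1 and 2 without cochlear replicate 3 or vestibular replicate 1.

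Among 28 genes known from inner ear fibrocytes, 5 were higher in vestibular NECs and 1 in cochlear NECs. The median log2 difference of the list was -0.36, or -0.26 with bounds. Car3, a carbonic anhydrase of fibrocytes and muscle, read 24.6, 22.8 and 33.1 against 346.5, 184 and 283 (at least 6.56-fold higher in vestibular NECs, adjusted p = 1.39e-08). Gjb6, which encodes connexin 30, was 2.27-fold higher (adjusted p = 0.00801), though not with median scaling. Its partner Gjb2, connexin 26, read 1057, 1371 and 1598 against 1826, 2303 and 2567.5 and did not pass (adjusted p = 0.157). Coch, which encodes the abundant matrix protein cochlin, read 1547, 1203 and 1288 against 2016, 2551 and 2322 (log2 -0.77 ± 0.32, adjusted p = 0.214). All 3 vestibular values of Coch and of Gjb2 lay above all cochlear values, and both genes passed with the replicate block (adjusted p = 0.037 and 0.0177). In all, Coch passed in 8 of 17 alternatives of the processing (limma adjusted p 0.000165 to 0.562 over the 17). Gjb2 passed in 3 of 17 (0.0114 to 0.561). The fibrocyte count was 8 with the block and 3 with median scaling. Emilin2, an elastic matrix gene, was the cochlear member (2.6-fold) and lost its call without cochlear replicate 1 or 3 or vestibular replicate 1, 2 or 3 (adjusted p 0.0534 to 0.106).

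Several Wnt ligands and inhibitors were higher in vestibular NECs. Of 43 Wnt pathway genes, 7 were higher in vestibular and 1 in cochlear NECs, with a median log2 difference of -0.12. Wnt ligands signal between neighbouring cells, and Frzb and Wif1 encode secreted proteins that bind them. Frzb read 371, 184 and 284 against 1856, 1439 and 2097.5 (6.61-fold higher in vestibular NECs, log2 -2.72 ± 0.25, adjusted p = 8.72e-07). Wif1 read 477, 503.5 and 477 against 1197, 1522 and 1311 (2.75-fold, adjusted p = 0.00139). The ligand Wnt5a, which acts largely without beta-catenin, read 474, 481 and 462 against 1664.5, 1382 and 1446 (3.16-fold, adjusted p = 4.75e-05). The Wnt5a values of the cochlear arrays were nearly identical, and all vestibular values lay far above them. Wnt2b, another ligand, was at least 2.57-fold higher in vestibular NECs (adjusted p = 5.26e-06). On the cochlear side stood Notum, an enzyme that strips Wnt ligands of their lipid, at 137, 102 and 116 against 19.9, 20.9 and 23.5 (at least 2.94-fold, adjusted p = 9.67e-09). The vestibular count was 4 with median scaling and 4 without cochlear replicate 2 or 3 or vestibular replicate 1 or 2.

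Other signalling lists held few calls in number, but except in the hedgehog list the share called was above the 6.18% of all genes. BMP and TGF-beta genes gave 1 cochlear and 2 vestibular calls of 37, FGF genes 2 and 2 of 28, IGF genes 1 and 2 of 13, Notch genes 1 and 2 of 20, and hedgehog genes 0 and 0 of 12, of which limma gave 2 an unadjusted p under 0.05 and the block called 3. The block gave 3 and 2 BMP and TGF-beta genes, 4 and 4 FGF genes and 1 and 5 Notch genes. Dner, a Notch-related membrane protein of neurons, read 775, 727 and 832 against 187, 190.2 and 176 (4.22-fold higher in cochlear NECs, adjusted p = 5.12e-05). Among 18 retinoic acid genes, Rbp4, the carrier of retinol in plasma, was detected in vestibular NECs alone, at 22.1, 21.6 and 22.3 against 227, 159 and 304 (at least 5.56-fold, adjusted p = 9.67e-09). Aldh1a3, an enzyme that makes retinoic acid, was higher in cochlear NECs, at 258, 197 and 436 against 57.4, 66.5 and 67.4 (adjusted p = 1.8e-05). In the thyroid hormone list, 2 of 8 genes were higher in cochlear and 0 in vestibular NECs, one of them Slco1c1, a transporter of thyroid hormone, at 206, 311 and 295 against 60.3, 69.9 and 119 (3.36-fold, adjusted p = 0.000346). Axon guidance genes were called both ways, 6 of 51 higher in cochlear NECs, such as the ephrin receptors Epha3 (2.81-fold) and Epha5 (4.38-fold), and 5 higher in vestibular NECs, such as the netrin Ntn4 (at least 2-fold) and the repellent Sema3a (2.89-fold). The cochlear count was 3 without cochlear replicate 3 or vestibular replicate 1 or 2, and the vestibular count 3 without any 1 cochlear array or vestibular replicate 3 and 2 with median scaling. Of 41 cell cycle genes limma called 0, with 5 at an unadjusted p under 0.05, and the block called 2 in the cochlear and 1 in the vestibular direction.

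**Figure D4:**
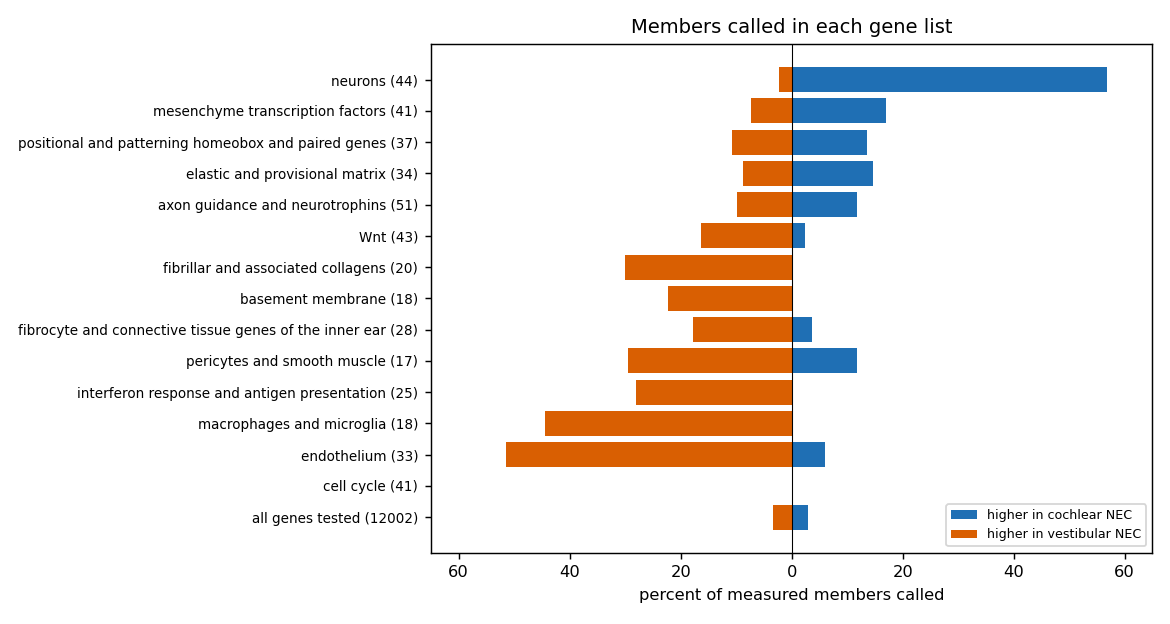
Percent of the measured members (number in brackets) of 14 gene lists, and of all 12002 genes tested, that were called higher in cochlear NECs (blue, to the right) or higher in vestibular NECs (orange, to the left). Neurons had 25 of 44 members to the right, endothelium 17 of 33 and macrophages 8 of 18 to the left, and cell cycle genes had 0 of 41 on either side.

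Many vessel genes were higher in vestibular NECs. Of 33 endothelial genes, 17 were higher in vestibular and 2 in cochlear NECs. Their median log2 difference was -0.76, or -0.58 with bounds. Flt1, a receptor of vascular endothelial growth factor, read 60.1, 49.3 and 78.0 against 150.2, 179 and 206 (2.88-fold, adjusted p = 0.000162). The adhesion gene Pecam1 read 127, 97.5 and 103 against 181, 198 and 198 (1.77-fold, adjusted p = 0.00889), and was not called without cochlear replicate 2 (adjusted p = 0.0527). The folds of the 17 were modest, at 1.59 to 4.3 with a median of 1.79, and the summed signal was 5287 to 6740 in cochlear and 9198 to 9719 in vestibular NECs. Tek, another defining endothelial gene, was not called, at 239, 185 and 276 against 226, 245 and 368. The members higher in cochlear NECs were Emcn, a sialomucin of venous and capillary endothelium (1.86-fold, adjusted p = 0.00169), and Prox1, a homeobox factor of lymphatic endothelium that the ear also uses in epithelium and neurons (at least 2.65-fold, adjusted p = 0.000172). The vestibular count was 8 without cochlear replicate 2, 11 without vestibular replicate 3, 8 with median scaling and 9 when the 6 NEC arrays were fitted alone, whether or not they were also normalised alone. Cochlear replicate 2 had the lowest endothelial sum.

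Of 17 pericyte genes, 5 were higher in vestibular and 2 in cochlear NECs, and the vestibular count was 3 without cochlear replicate 2 or 3 or vestibular replicate 2. Abcc9 (2.31-fold, adjusted p = 4.19e-05) and Kcnj8 (1.93-fold, adjusted p = 0.0020), which encode the subunits of a potassium channel of pericytes, were both higher in vestibular NECs. Abcc9 read 59.3, 56.6 and 69.1 against 157, 133.5 and 136. Rgs5, a defining gene of the list, was also higher in vestibular NECs, at 1001, 621 and 730 against 1476, 1700 and 1419.5 (1.99-fold, adjusted p = 0.0189). Rgs5 lost its call with median scaling and without cochlear replicate 2 or 3 or vestibular replicate 2. Pdgfrb and Acta2, defining genes of pericytes and smooth muscle, were not called, at 106, 107 and 98.5 against 131, 89.3 and 111.5 and at 378, 341 and 257.5 against 307.5, 391 and 322.5. The intermediate filament Des, which muscle and pericytes share, was higher in cochlear NECs, at 975.5, 650.0 and 687 against 189.9, 222 and 195 (3.76-fold, adjusted p = 0.000466).

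Several genes of blood-derived cells were higher in vestibular NECs. Of 10 genes of neutrophils, mast cells and lymphocytes, 3 were higher in vestibular NECs and 1 in cochlear NECs, and the vestibular count was 5 without vestibular replicate 1. The cochlear member was 1.81-fold higher, with cochlear replicate 2 the highest array. Cpa3, a carboxypeptidase of mast cell granules, read 30.4, 29.5 and 45.2 against 195, 894 and 285 (adjusted p = 3.78e-05), and only 1 of the 3 cochlear values lay above the detection limit, so that the size of the difference is not given. Hdc, the enzyme that makes histamine, read 119, 45.5 and 49.9 against 331, 731 and 265.5 (6.19-fold, adjusted p = 0.00134). Vestibular replicate 2 was the highest array for both genes, by a wide margin over the other vestibular arrays. The protease genes Tpsb2 (at least 1.74-fold) and Cma2 (at least 3.26-fold, chosen after its values were seen) had the same shape, and Tpsb2 was not called with the replicate block (adjusted p = 0.0589). Gata2, a transcription factor of mast cells and of many other tissues, had no such outlying array, at 382, 522 and 259 against 1851.5, 1570.1 and 1693 (4.57-fold, adjusted p = 0.000463), nor had Srgn, the granule proteoglycan serglycin, at 98.6, 89.8 and 135 against 606, 550.4 and 692.5 (5.78-fold, adjusted p = 9.32e-07).

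Of 18 macrophage genes, 8 were higher in vestibular and 0 in cochlear NECs. Their median log2 difference was -1.19, or -1.04 with bounds. The lysozyme gene Lyz2 read 44.2, 47.1 and 70.3 against 106, 137 and 254 (2.93-fold, adjusted p = 0.00447), and the complement gene C1qb was at least 1.57-fold higher. Clec10a, a lectin of macrophages and dendritic cells, is not one of these 8 genes. It was 6.43-fold higher and lost its call without cochlear replicate 1 or 2 or vestibular replicate 2 or 3 (adjusted p 0.0883 to 0.116). Vestibular replicate 3 was the highest array for all 8 genes, and summed signals were 1379, 1516 and 2188 in cochlear and 3319, 3602 and 7466 in vestibular NECs. The count was 4 without vestibular replicate 3, 4 without cochlear replicate 2, 5 without cochlear replicate 1 or vestibular replicate 1 and 14 with the replicate block. Csf1r, Cx3cr1, Cd68 and C1qa were not measured, and Adgre1, the defining gene that was, read 55.0, 94.9 and 111 against 82.5, 117 and 349 and was not called. Red cell genes gave 2 calls of 12, both vestibular (4 with the block). Alas2, the enzyme of haem synthesis in red cell precursors, read 98.2, 142 and 131 against 396, 830.2 and 271.5 (3.66-fold, adjusted p = 0.000304), with vestibular replicate 2 highest. The globin gene Hba-a1 was not called, at 424, 604 and 509.9 against 502, 518.5 and 569.

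The promoters of the mast cell gene Cpa3 and of Alas2, which were high on vestibular replicate 2, are shown in the same way. Capitals mark the GATA letters AGATAA or, where the site lies on the other strand, TTATCT, of the class that Gata2 and other GATA factors bind, and in Cpa3 also the TATA box letters TATAAA or, on the other strand, TTTATA. The Cpa3 window is chr3:20242132-20242431, minus strand and the Alas2 window chrX:150547167-150547466, plus strand.
Cpa3: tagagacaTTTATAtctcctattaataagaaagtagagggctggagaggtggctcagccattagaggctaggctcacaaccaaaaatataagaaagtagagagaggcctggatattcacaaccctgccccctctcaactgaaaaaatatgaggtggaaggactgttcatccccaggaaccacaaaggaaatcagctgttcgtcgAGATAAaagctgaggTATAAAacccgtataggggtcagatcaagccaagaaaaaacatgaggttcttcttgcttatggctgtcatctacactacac
Alas2: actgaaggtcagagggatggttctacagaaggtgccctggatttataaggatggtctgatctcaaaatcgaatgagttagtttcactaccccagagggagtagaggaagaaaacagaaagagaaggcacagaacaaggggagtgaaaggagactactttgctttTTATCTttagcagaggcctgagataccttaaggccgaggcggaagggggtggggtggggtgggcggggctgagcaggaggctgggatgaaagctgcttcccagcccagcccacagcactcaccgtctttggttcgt
In Cpa3 the GATA letters start 46 bases and the nearer TATA letters 31 bases before the gene start, and in Alas2 the GATA letters start 86 bases before it. The Cpa3 window also holds the E-box letters CAGCTG, which are not marked there.

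Motif letters in these windows were counted on both strands over all tested genes. AGATAA was found in 10.6% of the genes higher in vestibular NECs, in 5.36% of those higher in cochlear NECs and in 6.26% of all tested genes. TATAAA was found in 16.6%, 10.3% and 7.69%, and the AP-1 letters TGANTCA in 9.6%, 3.83% and 4.91%, in the same order. The GC box letters GGGCGG, typical of broadly used promoters, stood in 48.3% of the genes higher in vestibular NECs, in 59.4% of those higher in cochlear NECs and in 63.3% of all tested genes, and CAGCTG in 16.9%, 18.4% and 14.8%. Of all 32851 windows in the table, which include genes not tested here, 16.3% held CAGCTG, 11.2% AGATAA, 13.6% TATAAA, 7.81% TGANTCA and 35.7% GGGCGG. These shares describe letters in a window and were not tested.

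Interferon and antigen presentation genes were higher in vestibular NECs for 7 of 25 and in cochlear NECs for 0. Ifit3, an interferon-induced gene, read 98.5, 119.8 and 84.5 against 236, 262 and 158 (2.14-fold, adjusted p = 0.00382), and the immunoproteasome subunit Psmb9 was 1.87-fold higher (adjusted p = 0.00348). The summed signal was 7850 to 8063 in cochlear and 10709 to 11305 in vestibular NECs, and the count was 4 without vestibular replicate 2 or 3. Endothelial and macrophage sums, and that of neutrophil, mast cell and lymphocyte genes, were also higher on every vestibular array than on any cochlear array. Within an organ the order of arrays was not shared throughout. In cochlear replicate 3 the interferon sum was the lowest of its group (7850) and the macrophage sum the highest (2188). In vestibular replicate 3 both were the highest (11305 and 7466). The part of these lists in this or in any other result was not tested.

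The remaining lists take in genes of cell state and of tissue kinds. Of 39 immediate early and heat shock genes, which handling of tissue can raise, 1 was higher in vestibular NECs, the heat shock gene Hspa1a (2.2-fold, adjusted p = 0.0349), which was not called without cochlear replicate 1 or 2 or vestibular replicate 1 or 3 (adjusted p 0.116 to 0.176). The block called 7 of the 39 in the vestibular direction and 0 in the cochlear direction, the median log2 difference was -0.37 and the summed signals did not overlap, at 38238 to 45468 in cochlear and 51103 to 56504 in vestibular NECs. Of 25 hypoxia and glycolysis genes, 2 were higher in vestibular NECs, with sums of 8822 to 10576 and 11452 to 14218. Cartilage genes, 2 of 25 of which were higher in vestibular NECs (6 with the block), had sums of 22276 to 23718 and 26739 to 28331. The epithelial list had 1 of 40 called in each direction and a median log2 difference of 0.02. Its sums were 5501 to 7394 in cochlear and 4313 to 4758 in vestibular NECs, and Cdh1, which was not called, and Fgf10 stand among the genes summed. Of 31 matrix protease genes 1 was higher in cochlear and 2 in vestibular NECs, of 18 leucine-rich proteoglycan and glypican genes 0 and 3, of 12 skeletal muscle genes 1 and 1, and of 6 bone and 6 osteoclast genes limma called 0, with 1 and 2 at an unadjusted p under 0.05 and 0 and 1 called with the block. Among 30 human deafness genes that act outside the epithelium, 5 were higher in cochlear NECs, which include Fgf10, Tbx1 and Eya4, and 3 in vestibular NECs, which include Kitl and Gjb6. The proteoglycan count was 1 without vestibular replicate 3, and the cochlear deafness gene count was 3 without cochlear replicate 1 or 3 and 3 when the NEC arrays were fitted alone. The vestibular deafness gene count was 5 without vestibular replicate 1 and 6 with the block. The part of any of these lists in another result was not tested.

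Further genes had large differences in the vestibular direction. Il33, a nuclear cytokine of stromal and barrier cells, read 58.7, 73.6 and 59.4 against 450.4, 552 and 559.9 (8.16-fold, log2 -3.03 ± 0.27, adjusted p = 6.45e-07). Cntn6, a contactin of the cell surface known from neurons, read 80.7, 78.1 and 104 against 734, 653 and 719 (8.08-fold, log2 -3.01 ± 0.21, adjusted p = 2.36e-08). Lpl, lipoprotein lipase, read 79.3, 60.8 and 70.7 against 458, 529 and 706 (7.95-fold, log2 -2.99 ± 0.20, adjusted p = 2.16e-08). In all 3 genes each group was tight and the gap between the groups was several times the spread within either. Trf, the iron carrier transferrin, was 4.75-fold higher (log2 -2.25 ± 0.18, adjusted p = 1.73e-07), Pkib, an inhibitor of protein kinase A, 4.77-fold, Anks1b, a postsynaptic scaffold protein, 4.75-fold, and Cemip, a hyaluronan-degrading protein, 5.05-fold. Cxcr4, the receptor of the chemokine Cxcl12, read 52.9, 67.0 and 74.1 against 297, 586 and 258 (5.55-fold, adjusted p = 0.000647). Genes detected on vestibular arrays alone took in the cystine transporter Slc7a11 (at least 4.62-fold), the adaptor Lcp2 of blood cells (at least 3.49-fold), the complement factor H-related gene Cfhr2 (at least 3.46-fold) and Krt18, a keratin of simple epithelia, at 25.6, 21.7 and 24.8 against 232, 115.5 and 205 (at least 4.41-fold, adjusted p = 1.24e-05). Its keratin partner Krt8 was undetected on all 6 arrays.

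Melanocyte and hair cell lists also held calls on the cochlear side. Dct, an enzyme of melanin synthesis found in the intermediate cells of the stria vascularis, read 128, 399.8 and 206 against 92.8, 25.7 and 37.2 (4.91-fold higher in cochlear NECs, adjusted p = 0.000691). Cochlear replicate 2 was the highest array, and the gene was not called with the replicate block (adjusted p = 0.0505). Of 10 melanocyte genes, 2 were higher in cochlear and 0 in vestibular NECs. The hair cell list gave 3 calls of 27, all cochlear, of which Pvalb and Calb2 are given above and Slc17a8 is the other. Slc17a8, the vesicular glutamate transporter of inner hair cells, read 74.1, 161 and 124 against 26.9, 30.6 and 37.5 (at least 2.86-fold, adjusted p = 0.00169) and was not called without background correction, while the defining hair cell genes Atoh1, Pou4f3, Myo7a, Otof and Lhfpl5 were undetected on all 6 arrays. Sex-linked genes gave 0 calls of 8 in limma, 0 at an unadjusted p under 0.05 and 0 with the block. Eif2s3y, on the Y chromosome, read 489, 205 and 604 in cochlear and 542, 200.1 and 479.9 in vestibular NECs, low in replicate 2 of both organs, and Xist, which the inactive X expresses, read 1352, 1724 and 759 and 921, 1795 and 841, high in replicate 2 of both. The 2 organs of a replicate number shared this pattern.

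The organ difference in NECs was set against the organ difference in the other cell types by testing the difference of the differences. It differed from that in ENHCs for 951 genes (7.92% of 12002) and from that in HCs for 1435 (12%). Of the 742 genes called in NECs, 355 (47.8%) differed from ENHCs, 458 (61.7%) from HCs and 281 from both. In ENHCs, 140 of the 742 were called in the same direction and 69 in the opposite direction, and in HCs 86 and 83. Of the 25 neuron genes higher in cochlear NECs, 19 differed from ENHCs. Of the 17 endothelial genes 7 did, and of the 8 macrophage genes 0 did, whereas Clec10a, which is not one of the 8, did (adjusted p = 0.0214). Of the 7 mesenchyme transcription factors higher in cochlear NECs 6 differed from ENHCs, and of the 7 Wnt genes higher in vestibular NECs 5 did.

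Several genes reversed between cell types. Zpld1 was 5.49-fold higher in cochlear NECs, at 739, 865.5 and 933 against 83.0, 172.5 and 252.5, whereas its mean signal in ENHCs was 62.4 in the cochlea and 3387 in the vestibular system (log2 -5.76). The NEC difference exceeded the ENHC difference by 8.22 ± 0.53 (adjusted p = 2.5e-08), and in HCs the gene was also higher in the vestibular system (log2 -3.96). Aldh1a3 had the same pattern, with a log2 difference of -4.27 in ENHCs and -5.53 in HCs and a difference between NECs and ENHCs of 6.42 ± 0.35 (adjusted p = 7.43e-09). Tbx1 was -2.51 in ENHCs and -1.81 in HCs, with a difference of 4.38 ± 0.29 (adjusted p = 2.5e-08). All 3 genes were thus higher on the cochlear side in NECs and on the vestibular side in both epithelial cell types. Mybpc1, a myosin-binding protein (2.22-fold in NECs, -4.76 in ENHCs), and Sbspon, a secreted somatomedin B domain gene (1.85-fold, -3.76), followed them. Mybpc1 lost its NEC call without cochlear replicate 1, 2 or 3 or vestibular replicate 2 or 3 (adjusted p 0.0607 to 0.125), and Sbspon lost its NEC call without cochlear replicate 1 or 3 or vestibular replicate 2 or 3 (adjusted p 0.0812 to 0.142). Sptssb, a subunit of the enzyme that starts sphingolipid synthesis, read 146, 140.3 and 181.5 against 20.3, 20.6 and 22.6 in NECs (at least 3.89-fold), with log2 0.06 in ENHCs and 0.01 in HCs, where it was not called. Its mean signals there were 22.5 and 21.5 in cochlear and vestibular ENHCs and 23.6 and 23.5 in HCs. These lie below the limits of 34.4 to 45.9 on those arrays, so the differences near 0 do not show equal levels.

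The converse, higher in vestibular NECs and in cochlear ENHCs, was found for Adgrg2, an adhesion G protein-coupled receptor, at 106, 121 and 183 against 472, 434 and 283 in NECs and log2 4.75 in ENHCs (difference -6.29 ± 0.43, adjusted p = 4.62e-08). Lum, the matrix proteoglycan lumican, read 163.5, 157 and 157 against 429, 398 and 565 in NECs (2.88-fold), with log2 4.51 in ENHCs and 2.76 in HCs. It lost its NEC call without vestibular replicate 3 (adjusted p = 0.0596). Clic6, a chloride channel family gene, was 3.43-fold higher in vestibular NECs and at log2 3.91 in ENHCs. Kitl, the ligand of the receptor Kit that melanocytes and mast cells carry, read 211.5, 213 and 254 against 512, 477 and 459 in NECs (2.14-fold higher in the vestibular system), with log2 2.01 in ENHCs, while in HCs it was higher in the vestibular system as in NECs (adjusted p = 1.31e-07). Itih5, an inter-alpha-trypsin inhibitor chain of the hyaluronan matrix, was 4.73-fold higher in vestibular NECs on all 4 probes and at log2 1.23 in ENHCs and 1.97 in HCs. Wnt5a (1.12) and Cxcr4 (2.74) were also higher in cochlear ENHCs, whereas in HCs Wnt5a was at log2 -1.64, on the vestibular side as in NECs. Vnn1, which met the naming rule by its ENHC difference (log2 -3.75), was detected on 1 NEC array.

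**Figure D5:**
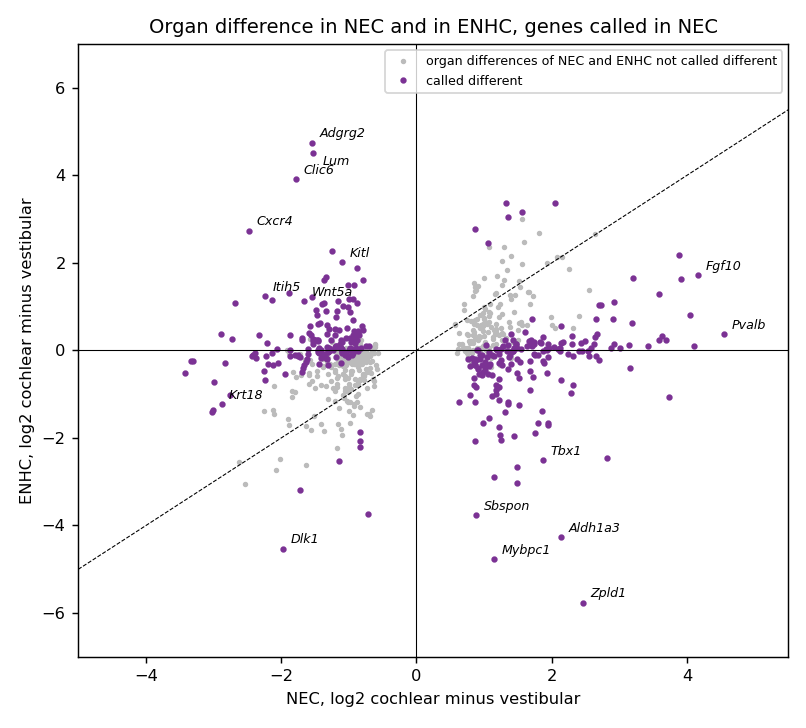
The 742 genes called in NECs, with the NEC organ difference on the x axis and the ENHC organ difference on the y axis (both log2, cochlear minus vestibular) and a dashed line of equality. Purple points are the 355 genes whose 2 differences were called different, and genes in the upper left and lower right corners, such as Adgrg2 and Zpld1, have opposite signs in the 2 cell types.

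A small set of genes differed between the organs in the same direction in all 3 cell types, 12 higher in the cochlea and 15 higher in the vestibular system. They were chosen by that rule, which used these values, and are described without a test. On the cochlear side were Robo2, a receptor of axon guidance (2.4-fold in NECs, log2 2.03 in ENHCs and 2.24 in HCs), and Syt1, the calcium sensor of synaptic vesicles (2.96-fold, 3.01 and 1.72). Robo2 lost its NEC call without cochlear replicate 3 or vestibular replicate 1 or 2 (adjusted p 0.0643 to 0.0678). On the vestibular side were Anks1b (4.75-fold in NECs, -1.38 and -1.56), S100b (3.47-fold, -0.96 and -3.02), Krt18 (-1.23 and -1.26) and Ildr2, an immunoglobulin-like membrane protein chosen after its values were seen, at 184, 223 and 195 against 1048, 524.5 and 1098 in NECs (4.23-fold, -2.74 and -1.50).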

How the data were processed

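RNA of cochlear and vestibular NECs, ENHCs and HCs was measured on 18 Illumina BeadChip arrays (3 a group). The authors deposited, for each array, probe intensity and a detection p-value, and a table of intensities that they had quantile-normalised. The deposited intensities were corrected for background with the normexp model of limma 3.58.1 (R 4.3.3) from the detection p-values, with an offset of 16, quantile-normalised and put on the log2 scale. Of 45281 probes, 24352 were detected (p under 0.01) on at least 2 of 18 arrays, and 20146 of these had 1 gene symbol in the platform annotation. Each of the 12002 genes is given by its probe of highest mean. Of the 284 called genes with several kept probes, 104 had all of them called in the same direction. Called genes with probes called both ways numbered 0. limma fitted all 18 arrays, with moderated tests and Benjamini-Hochberg adjustment over all genes, for the organ difference in NECs and for its difference from that in ENHCs or HCs. The number of arrays limits the precision. The p-values rest on the spread between pools of mice within a group, shared over all 6 groups. They treat arrays of equal replicate number as independent, which the fit with the replicate block does not.

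Replicate numbers were checked for pairing. Deviations from the group means correlated at 0.409, 0.308 and 0.374 between cochlear and vestibular NEC arrays of the same number. Each cochlear array matched the vestibular array of its own number best, so that a fit with the number as a block is given beside the counts. Folds against an undetected group are lower bounds against the mean of each array's detection limit, the lowest signal among its detected probes.

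Genes were named by rule: the 12 largest differences in each direction among genes detected on all 6 arrays without overlap, the 6 largest lower bounds in each direction, the 4 called members of smallest adjusted p in each direction of each of 37 gene lists with the list's defining markers, and the 6 genes in each direction of smallest adjusted p against ENHCs. Others are said to be chosen after their values were seen. The comparison, the lists and the tests were chosen with earlier results of these data known. The pipeline was tested on simulated data. Alternatives covered background, offset, normalisation, the deposited normalised table, probe filters, the arrays fitted, array weights, the probe for a gene and each array left out. Promoter sequences are from RefSeq (GRCm38.p6).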

Additional observations from a re-analysis of the deposited data

Results flagged for a closer look

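The genes below are listed because their organ difference was called in NECs and differed from that in ENHCs, each at a limma adjusted p under 0.05. Most were named by the smallest adjusted p of this same test, so the list adds no further evidence. The values are the NEC difference minus the ENHC difference on the log2 scale. Positive values, with the NEC difference the more cochlear, were 8.22 for Zpld1, 6.42 for Aldh1a3, 5.91 for Mybpc1, 4.65 for Sbspon, 4.38 for Tbx1, 3.63 for Slco1c1, 3.25 for Slc17a8, 3.04 for Vnn1 and 2.81 for Sptssb. Negative values were -6.29 for Adgrg2, -6.04 for Lum, -5.69 for Clic6, -5.21 for Cxcr4, -3.47 for Itih5, -3.11 for Kitl and -2.78 for Wnt5a. All of these but Vnn1 and Sptssb were called in both cell types with opposite signs, and the mean signals of Sptssb in ENHCs lay below the detection limit. Krt18, called in the same direction in both, also differed (-1.64, limma adjusted p = 0.0322). Robo2, Syt1, Anks1b, S100b and Ildr2, whose ENHC differences are given above, did not differ (limma adjusted p 0.0688 to 0.537).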

How the results depend on the processing

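The replicate block gave 573 genes higher in cochlear and 672 in vestibular NECs, and array weights 674 and 724, against 343 and 399. Median scaling gave 215 genes higher in vestibular NECs and 954 differing from HCs against 1435, shifted the median of all genes to 0.12 on the log2 scale and put 55.4% of calls on the cochlear side against 46.2%. At least 2-fold calls numbered 167 without background correction and with the deposited normalised values, and 274 with an offset of 50, against 486. The cause was not tested. With 1 array left out, 220 to 300 genes were higher in cochlear and 259 to 330 in vestibular NECs. Of 120 called genes named here, 94 kept their call in every alternative and 0 reversed. The block ended the calls of Dct, Ret, Tpsb2 and Vnn1 among them, and fitting the 6 NEC arrays alone ended those of Cdh5, Cldn5, Cma2, Hspa1a, Kdr, Kit, Map1b, Pmp2, Ret, Sbspon, Snai2, Tpsb2 and Vnn1. Median scaling ended those of Cdh5, Cldn5, Clec10a, Gjb6, Hspa1a, Kdr, Kit, Pecam1, Ret, Rgs5, Sbspon, Sema3a, Tbx18 and Vnn1, and no filter on dim probes those of Cldn5, Clec10a, Emilin2, Hspa1a, Kit, Map1b, Mybpc1 and Zic4. Signal limits what can be seen, since 1393 of the 12002 genes were undetected on all 6 arrays.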
